A study of Mus musculus with 6 samples.

Results

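Collagens and laminins are the structural chains of the extracellular matrix, and the genes that encode them were taken here by name alone. Protein-coding genes whose symbol is Col, a number, a and a number, or Lama, Lamb or Lamc with a number, gave 55 of the 22380 gene identifiers measured, 44 collagen and 11 laminin chains. The names alone decided which genes were taken, but the set was chosen with earlier results of these data known. By the structure that their proteins build, 17 of the genes belong to the basement membrane (the 6 chains of collagen IV and all laminins), 11 to the fibrillar collagens, 9 to the fibril-associated collagens, 6 to collagen VI, 2 to the multiplexins, 4 to the transmembrane collagens and 6 to no group of these.

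RNA was measured in 3 *Ctrl* and 3 *Tet iTKO* lines of mouse embryonic stem cells (mESC), each line derived from another embryo. All lines carry 1 knocked-in *CreERT2* allele (wt/ki), a recombinase that tamoxifen activates, and the Gt(ROSA)26Sor<tm1Ytchn>/J reporter (wt/ki), and the *Tet iTKO* lines also carry *Tet1/2/3* fl/fl. Both groups had 1 µM 4-hydroxytamoxifen for 2.5 days and 4 more days of culture, though parts of the study's methods give a shorter exposure. They were grown on feeder fibroblasts in 2i medium and were sorted on day 6.5 as live CD326+ GFP+ Thy1.2- cells. The deposited values are normalized counts of whole genes, which sum to between 4210784 and 4219665 in the *Ctrl* and between 3964824 and 3996522 in the *Tet iTKO* libraries, in which the floxed exons are not resolved. Over the whole gene *Tet1* was at 696, 682 and 716 in the *Ctrl* lines, against 787, 895 and 753 for *Tet iTKO*, *Tet2* at 249, 170 and 230 against 233, 268 and 211, and *Tet3* at 28, 13 and 13 against 10, 3 and 3, so that only *Tet3* was lower in every *Tet iTKO* line. Markers of mESC were present in every library. *Pou5f1* had 5208, 5804 and 5457 normalized counts in *Ctrl*, against 4373, 4318 and 4775 for *Tet iTKO*. Of 8 such markers 2 were higher (*Esrrb* and *Epcam*) and 3 lower (*Pou5f1*, *Nanog* and *Zfp42*) in *Tet iTKO* mESC by the limma test described below. Of all genes 16.4% were higher and 18.4% lower. All pairs of libraries within a group differed from each other. Normalized counts do not show whether this exceeds sampling noise.

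Laminins are heterotrimers of an alpha, a beta and a gamma chain. They polymerise on the cell surface, where integrins and dystroglycan bind them, and collagen IV, a trimer that is mostly made of alpha1 and alpha2 chains, forms the second network of the basement membrane. The basement membrane is the first matrix of the mouse embryo. It lies between epiblast and primitive endoderm, and parietal endoderm secretes large amounts of it. Fibrillar collagens such as types I and III form the fibres of connective tissue and are typical products of fibroblasts, the cell type used as feeder in this culture.

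Of the 55 genes, 19 reached a mean of 10 normalized counts over the 6 libraries and entered limma as log2(normalized count + 1), where p-values were adjusted by Benjamini and Hochberg over all 10524 genes tested. At an adjusted p under 0.05, 12 of the 19 rose in *Tet iTKO* mESC and 0 fell, where the shares over all genes tested were 16.4% and 18.4%. At an unadjusted p under 0.05 limma gave 15 higher and 0 lower, against 2240 and 2330 of the 10457 tested genes with a symbol. Every *Tet iTKO* line stood above every *Ctrl* line in 14 of the 19 and below in 0, against 21.2% and 22.9% of all genes. The higher genes were 7 of the 9 basement membrane genes tested, 3 of the 6 fibrillar collagens and both fibril-associated collagens, and 7 of the 12 rose by 1 or more on the log2 scale. None fell by that much, and the shares over all genes were 4.95% and 1.3%. The median log2 fold change was 0.73 over the 9 basement membrane genes and 1.09 over the 6 fibrillar genes, against 0.01 over all genes with a symbol. A filter on the mean favours genes that are high in at least 1 group. *Col4a2*, *Col5a2* and *Col13a1* had a mean under 10 in *Ctrl* and passed it through their *Tet iTKO* values. In bulk RNA, more cells that express a gene and more RNA of it per cell cannot be told apart.

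Several of these genes changed direction when transcript length and GC content were taken into account. Across all genes tested, the log2 fold change had a Spearman coefficient of 0.25 with transcript GC content and 0.32 with transcript length, a description across genes, which are not independent replicates. The 19 genes tested have a median GC content of 58.0% and a median length of 5784 bases, against 50.5% and 3074 bases over all genes tested, and 18 of 19 lie above the median in GC content and 17 of 19 in length. When the trend of each library on both properties was subtracted (the GC and length correction), 6 of the 19 rose and 3 fell by the same threshold in limma, where the shares over all genes were 9.45% and 18.7%. By 1 or more on the log2 scale 3 were higher and 0 lower, with shares of 3.33% and 1.34%. The 6 were *Col4a1*, *Col4a2*, *Lamb1*, *Col1a2*, *Col3a1* and *Col9a2*, and the 3 lower genes were *Lamc1*, *Lama5* and *Col18a1*. The median log2 fold change was then 0.11 over the basement membrane and 0.49 over the fibrillar genes, against -0.06 over all genes. Values after this correction are given beside the others below for many of the genes named, not for all. Of these genes 18 appear in the plots of values by library and of fold changes.

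**Figure D1:**
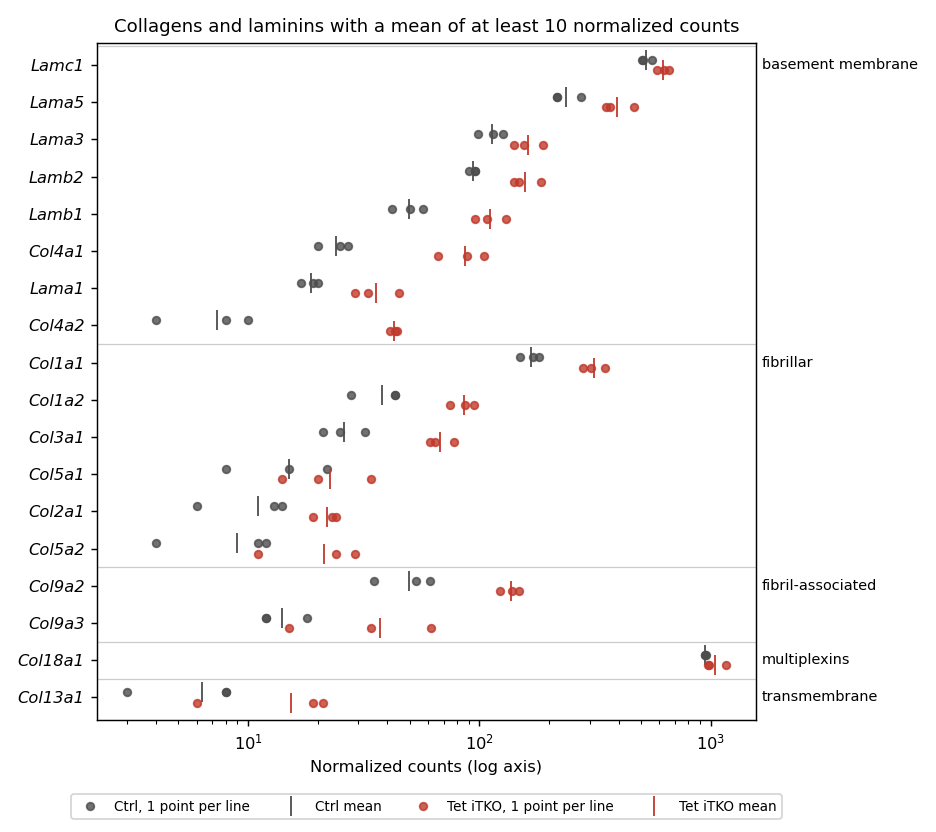
Normalized counts (horizontal log axis) of 18 of the 19 collagen and laminin genes with a mean of at least 10, grouped by structure, with 1 point per line and a vertical tick at each group mean. For *Col4a2* the *Ctrl* lines lie between 4 and 10 and the *Tet iTKO* lines between 41 and 44, whereas for *Col5a1* the groups overlap.

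**Figure D2:**
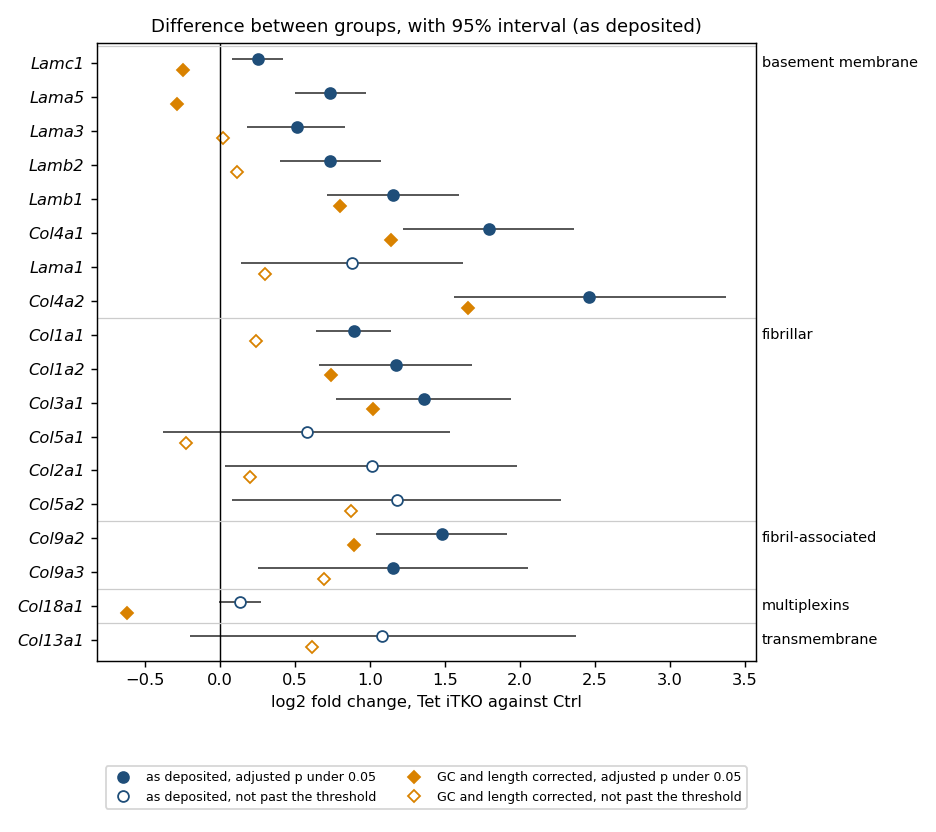
Log2 fold change of *Tet iTKO* against *Ctrl* for the same 18 genes, as deposited (circles, with the 95% interval from limma as bars) and after the GC and length correction (diamonds), filled where the adjusted p is under 0.05. *Col4a2* stays at 1.65 after the correction, and *Lama5* moves from 0.73 to -0.29.

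*Col4a1* and *Col4a2*, which encode the alpha1 and alpha2 chains of collagen IV, rose the most among the basement membrane genes. *Col4a1* (ENSMUSG00000031502) was at 25, 20 and 27 normalized counts over the *Ctrl* lines, against 66, 105 and 88 for *Tet iTKO*. *Col4a2* (ENSMUSG00000031503) was at 4, 10 and 8 in *Ctrl*, against 44, 41 and 43 for *Tet iTKO*. Every *Tet iTKO* line lay above every *Ctrl* line for both genes, as for 21.2% of all genes tested. On the log2 scale the fold changes were 1.79 (standard error, SE, 0.28, adjusted p = 3.6e-06, limma) for *Col4a1* and 2.46 (SE 0.45, adjusted p = 3.8e-05, limma) for *Col4a2*. After the GC and length correction they were 1.14 (adjusted p = 0.0017, limma) and 1.65 (adjusted p = 0.0041, limma). With a mean of 7.33 in *Ctrl*, *Col4a2* entered the test only through its *Tet iTKO* values. Per kb of transcript the level of *Col4a1* went from 3.63 to 13.1 normalized counts and that of *Col4a2* from 1.14 to 6.61, so that *Col4a1* remained the more abundant of the pair. The log2 ratio of *Col4a2* to *Col4a1* was -1.65 ± 0.72 (SD, n = 3) for *Ctrl* and -0.98 ± 0.38 (SD, n = 3) for *Tet iTKO*, and the lines overlapped (exact two-sided permutation test, p = 0.3, adjusted p = 0.30 over 4 ratios, with 0.1 the smallest p that 3 lines against 3 allow).

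The pair lies head to head on chromosome 8, *Col4a1* on the minus strand and *Col4a2* on the plus strand, and in the GENCODE M21 annotation of GRCm38 the genes overlap by 22 bases at their starts. The other collagen IV pairs have the same arrangement but few reads. *Col4a3*, *Col4a4* and *Col4a6* were listed at 0 in all 6 libraries, and *Col4a5* had at most 5 normalized counts. The windows of 300 bases around the RefSeq start of *Col4a1* (GRCm38.p6, chr8:11312777-11313076, minus strand) and *Col4a2* (GRCm38.p6, chr8:11312555-11312854, plus strand) are shown because both genes of this pair rose and their starts overlap. Each is written 5′ to 3′ on the strand of its gene, with CpG dinucleotides, the sites that DNA methyltransferases methylate and TET enzymes oxidise, in capitals.
*Col4a1*: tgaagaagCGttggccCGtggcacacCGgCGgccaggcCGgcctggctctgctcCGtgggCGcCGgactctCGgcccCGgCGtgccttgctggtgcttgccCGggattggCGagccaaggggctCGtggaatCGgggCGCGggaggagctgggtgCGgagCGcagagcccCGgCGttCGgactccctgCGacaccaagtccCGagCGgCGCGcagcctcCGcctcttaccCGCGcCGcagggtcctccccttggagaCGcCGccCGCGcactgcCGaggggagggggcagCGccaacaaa
*Col4a2*: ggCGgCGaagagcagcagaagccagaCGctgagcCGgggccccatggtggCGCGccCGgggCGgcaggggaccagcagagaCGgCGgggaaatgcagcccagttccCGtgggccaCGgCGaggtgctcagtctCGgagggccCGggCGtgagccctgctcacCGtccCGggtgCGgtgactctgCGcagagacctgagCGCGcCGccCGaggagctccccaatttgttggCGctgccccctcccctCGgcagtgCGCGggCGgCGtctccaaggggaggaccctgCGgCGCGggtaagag
The *Col4a1* window holds 37 CpG and the *Col4a2* window 33, against a median of 7 over all 32851 such windows of 300 bases, of which 26.5% hold at least 20. Each window has 1 CCAAT box (letters CCAAT, either strand, present in 37.4% of all windows), and GC boxes (letters GGGCGG, either strand, present in 35.7% of all windows) number 1 in the *Col4a1* and 3 in the *Col4a2* window. On the other strand a CCAAT box reads ATTGG and can share bases with a GC box, the motifs were counted apart, and a match describes the sequence only.

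Among the beta chains of laminin, both genes with enough reads rose. *Lamb1*, the beta chain of the laminins of the early embryo, was at 50, 57 and 42 normalized counts over the *Ctrl* lines, against 130, 96 and 108 for *Tet iTKO*, without overlap. On the log2 scale it rose by 1.15 (SE 0.22, adjusted p = 6.6e-05, limma), and 0.80 after the correction (adjusted p = 0.0048, limma). *Lamb2*, the beta chain that replaces it in other laminins, had 90, 96 and 96 against 148, 185 and 141. It also did not overlap, with a log2 fold change of 0.73 (SE 0.17, adjusted p = 0.00062, limma) that was 0.11 after the correction (adjusted p = 0.68, limma). Per kb, *Lamb2* stood above *Lamb1* in both groups, at 16.7 against 8.59 in *Ctrl* and at 28.1 against 19.2 in *Tet iTKO* mESC. *Lamb3*, a chain of an epithelial laminin, had between 1 and 11 normalized counts and was not tested. The *Lamb1* window (GRCm38.p6, chr12:31265043-31265342, plus strand) is shown beside those of collagen IV as that of the laminin chain with the largest rise.
*Lamb1*: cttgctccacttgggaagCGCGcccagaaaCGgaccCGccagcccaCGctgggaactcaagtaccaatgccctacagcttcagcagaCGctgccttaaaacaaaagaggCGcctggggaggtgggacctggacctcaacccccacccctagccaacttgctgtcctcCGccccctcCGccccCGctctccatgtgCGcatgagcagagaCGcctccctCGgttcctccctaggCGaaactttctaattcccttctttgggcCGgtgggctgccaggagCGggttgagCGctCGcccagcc
It holds 18 CpG, fewer than either collagen IV window, with 1 CCAAT box and 2 GC boxes.

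*Lamc1*, the gamma chain shared by most laminins and the most abundant laminin chain here, was at 510, 559 and 503 normalized counts over the *Ctrl* lines, against 660, 627 and 584 for *Tet iTKO*. The groups lay apart, narrowly, between 559 and 584, and the log2 fold change was 0.25 (SE 0.08, adjusted p = 0.016, limma). This sign did not hold after the GC and length correction, where the value was -0.25 (adjusted p = 0.023, limma). As deposited the call was lost without *Ctrl* replicate 3 (0.22) or *Tet iTKO* replicate 1 (0.21). *Lamc3* had at most 1 normalized count in any library.

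Of the alpha chains, *Lama5* and *Lama3* passed the threshold as deposited and *Lama1* did not. *Lama5*, an alpha chain of many epithelia, was at 217, 216 and 276 normalized counts over the *Ctrl* lines, against 352, 366 and 464 for *Tet iTKO*. On the log2 scale it rose by 0.73 (SE 0.12, adjusted p = 4.7e-06, limma), without overlap. After the correction it was -0.29 (adjusted p = 0.049, limma). At 11388 bases *Lama5* has the longest transcript of the 19, and 7 other genes lie within 2 points of its GC content and 0.25 of its log2 length. The trend subtracted there was therefore fitted mostly to genes less like it in these properties. *Lama3*, the alpha chain of the laminin of hemidesmosomes, had 115, 99 and 126 against 141, 156 and 189, a log2 fold change of 0.51 (SE 0.16, adjusted p = 0.013, limma) and 0.02 after the correction (adjusted p = 0.95, limma). Its call was lost without *Ctrl* replicate 2 (0.41) or *Tet iTKO* replicate 3 (0.39). *Lama1*, the alpha chain of the main laminin of the early embryo, was at 20, 17 and 19 in *Ctrl*, against 29, 33 and 45 for *Tet iTKO*. Those lines did not overlap, and the log2 fold change of 0.88 had a 95% interval of 0.14 to 1.62 (adjusted p = 0.059, limma). After the correction it was 0.30 (adjusted p = 0.6, limma). *Lama4* had at most 4 normalized counts, and *Lama2*, the chain of muscle and nerve laminin, was listed at 0 in every library.

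Relative to *Lamc1*, the chain with which they assemble, *Lamb1* and *Lama1* stood higher in each of the *Tet iTKO* lines than in all *Ctrl* lines. The log2 ratio of *Lamb1* to *Lamc1* went from -3.38 ± 0.15 (SD, n = 3) to -2.48 ± 0.19 (SD, n = 3), a difference of 0.90 (exact two-sided permutation test, p = 0.1, adjusted p = 0.20). For *Lama1* the ratio went from -4.74 ± 0.19 (SD, n = 3) to -4.11 ± 0.40 (SD, n = 3), a difference of 0.63 (exact two-sided permutation test, p = 0.1, adjusted p = 0.20). The ratio of *Lama5* to *Lamc1* went from -1.15 ± 0.26 (SD, n = 3) to -0.67 ± 0.30 (SD, n = 3) and the lines overlapped (exact two-sided permutation test, p = 0.2, adjusted p = 0.27). With 3 lines against 3 no ratio could reach an adjusted p under 0.05. Per kb in *Ctrl* mESC, *Lamc1* at 68.7 exceeded *Lama5* at 20.8, *Lamb2* at 16.7, *Lama3* at 10.7, *Lamb1* at 8.59 and *Lama1* at 1.96 normalized counts. In that order the ranges of *Lama3* (9.39 to 11.9) and *Lamb1* (7.26 to 9.85) overlapped over the *Ctrl* lines, and those of the other neighbours did not.

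**Figure D3:**
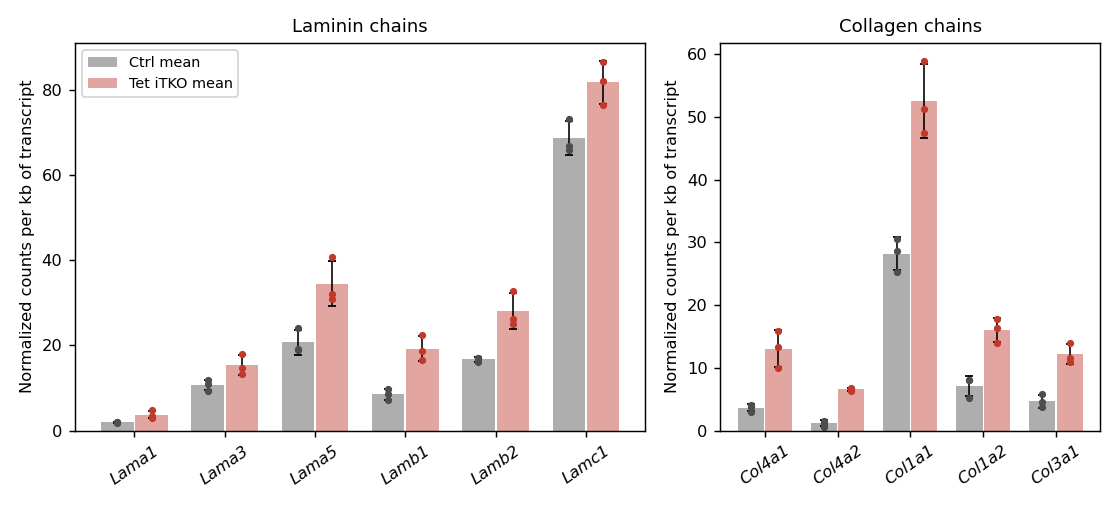
Normalized counts per kb of transcript (vertical axes, from 0) of 6 laminin chains (left) and of collagen chains IV, I and III (right), with bars for the mean, error bars for the SD and points for the 3 lines of each group. *Lamc1* is the highest laminin chain at 68.7 in *Ctrl* and 81.8 in *Tet iTKO* mESC, and *Col1a1* is the highest of these collagen chains at 28.2 and 52.5.

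The 3 fibrillar collagens with the most reads, *Col1a1*, *Col1a2* and *Col3a1*, all rose. *Col1a1* (ENSMUSG00000001506), the alpha1 chain of collagen I, was at 181, 170 and 150 normalized counts over the *Ctrl* lines, against 304, 281 and 349 for *Tet iTKO*. *Col1a2*, its alpha2 chain, had 43, 28 and 43 against 75, 87 and 95. *Col3a1*, the chain of collagen III, had 32, 25 and 21 against 61, 64 and 78. In each of these genes every *Tet iTKO* line stood above every *Ctrl* line. On the log2 scale the fold changes were 0.89 (SE 0.12, adjusted p = 4.1e-07, limma) for *Col1a1*, 1.17 (SE 0.25, adjusted p = 0.00033, limma) for *Col1a2* and 1.36 (SE 0.29, adjusted p = 0.0003, limma) for *Col3a1*. After the GC and length correction they were 0.24 (adjusted p = 0.15, limma), 0.74 (adjusted p = 0.024, limma) and 1.02 (adjusted p = 0.0065, limma). Per kb, *Col1a1* exceeded *Col1a2* in both groups, with 28.2 against 7.11 normalized counts in *Ctrl* and 52.5 against 16.0 in *Tet iTKO* mESC. The collagen I protein of connective tissue has more alpha1 than alpha2 chains, and levels of RNA say nothing of the protein.

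The other fibrillar collagens had few reads, and none passed the threshold. *Col2a1*, the collagen of cartilage, was at 6, 13 and 14 normalized counts over the *Ctrl* lines, against 19, 24 and 23 for *Tet iTKO*, a log2 fold change of 1.01 (adjusted p = 0.1, limma). After the correction it was 0.20 (adjusted p = 0.8, limma). *Col5a2* is the direct protein-coding neighbour of *Col3a1* and encodes a chain of collagen V, the nucleator of collagen I fibrils. It had 12, 4 and 11 against 11, 29 and 24, a log2 fold change of 1.18 (adjusted p = 0.089, limma), which passed without *Tet iTKO* replicate 1 (1.57). *Col5a1*, the main chain of collagen V, had 8, 15 and 22 against 14, 20 and 34, a log2 fold change of 0.58 (adjusted p = 0.37, limma) that was -0.23 after the correction. The groups overlapped in both collagen V genes. *Col5a3* had 14, 17 and 11 against 12, 2 and 2 and was below the mean required for the test. *Col11a1*, *Col11a2*, *Col24a1* and *Col27a1* had at most 5 normalized counts in any library. Summed over all 11 fibrillar genes, the *Ctrl* libraries had between 273 and 304 and the *Tet iTKO* libraries between 507 and 608 normalized counts, 1.91 times as many. Over the 17 basement membrane genes these sums were 1132 to 1198 and 1658 to 1754, 1.47 times as many, and over collagen IV alone 29 to 35 and 110 to 151, 4.09 times as many. The difference between basement membrane and fibrillar genes was not tested.

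The windows at the RefSeq starts of *Col1a2* (GRCm38.p6, chr6:4505368-4505667, plus strand) and *Col3a1* (GRCm38.p6, chr1:45311288-45311587, plus strand) are shown because both genes rose as well and hold far fewer CpG there, again in capitals.
*Col1a2*: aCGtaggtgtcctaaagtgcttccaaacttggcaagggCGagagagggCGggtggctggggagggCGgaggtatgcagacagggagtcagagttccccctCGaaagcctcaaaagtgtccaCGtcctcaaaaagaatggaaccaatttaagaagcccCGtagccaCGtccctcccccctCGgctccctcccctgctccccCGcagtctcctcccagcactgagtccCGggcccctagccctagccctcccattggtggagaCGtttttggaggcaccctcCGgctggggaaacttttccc
*Col3a1*: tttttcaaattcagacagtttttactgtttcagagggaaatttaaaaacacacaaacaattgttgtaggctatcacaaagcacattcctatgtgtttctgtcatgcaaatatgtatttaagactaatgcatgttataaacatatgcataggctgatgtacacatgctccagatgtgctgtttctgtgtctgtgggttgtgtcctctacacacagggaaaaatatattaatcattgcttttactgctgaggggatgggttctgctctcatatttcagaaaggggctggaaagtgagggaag
They hold 13 and 0 CpG. The *Col3a1* window has no CCAAT or GC box and 1 TATA box (letters TATAAA, either strand, present in 13.6% of all windows), and the *Col1a2* window has 2 CCAAT boxes and 2 GC boxes. RefSeq windows were matched for 11 of the 19 genes, *Col18a1* with 2 of them. Of these 12 windows, 5 hold at least 20 CpG, 5 hold a CCAAT box and 8 a GC box. Among the genes with a window, *Col4a2* with 33 CpG rose by 2.46 on the log2 scale as deposited, and *Col4a1* with 37 by 1.79. *Col9a2* with 10 rose by 1.48, *Col3a1* with 0 by 1.36, *Col1a2* with 13 by 1.17 and *Lamb1* with 18 by 1.15. *Lama5* with 24 and *Lamb2* with 4 each rose by 0.73. *Col5a1* with 34, *Col13a1* with 29 and *Col18a1* with 6 and 16 did not pass the test. A relation between CpG number and fold change was not tested.

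*Col1a1*, *Col1a2* and *Col3a1* are also markers of fibroblasts, so their values were set beside 18 other fibroblast markers. Summed over those 18, the *Ctrl* libraries had between 156 and 202 and the *Tet iTKO* libraries between 169 and 207 normalized counts, and these ranges overlap. The sum rests largely on a few genes. Its mean in *Ctrl* was 178, of which *Acta2* gave 49 and *Thy1* gave 39. Of the 5 with enough reads for limma, 0 rose and 0 fell after adjustment, and at an unadjusted p under 0.05 the counts were 1 and 0. Over the 10457 tested genes with a symbol the unadjusted counts were 2240 and 2330. With 16.4% and 18.4% of all genes called, a count of 0 among 5 genes is near the background. *Thy1*, which encodes the antigen that the sort was gated against, had 30, 46 and 41 against 47, 35 and 23, and *Acta2* had 46, 45 and 56 against 50, 44 and 42. *Tagln* had the largest log2 fold change of the 5, 0.90 (adjusted p = 0.056, limma), and after the GC and length correction it passed at 0.95 (adjusted p = 0.049, limma). *Fap* was listed at 0 in all libraries, *Postn* and *Twist2* had at most 3 normalized counts, and *Dcn*, an abundant transcript of fibroblasts, was at 2, 3 and 15 in *Ctrl*, against 1, 2 and 6 for *Tet iTKO*. *Ccdc80* was lower in every *Tet iTKO* line (5, 1 and 2) than in any *Ctrl* line (10, 13 and 18), and *Fbn1* was higher (15, 10 and 6 against 2, 1 and 2), both below the mean required for the test. The part of feeder fibroblasts in the values of *Col1a1*, *Col1a2* and *Col3a1* was not tested.

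**Figure D4:**
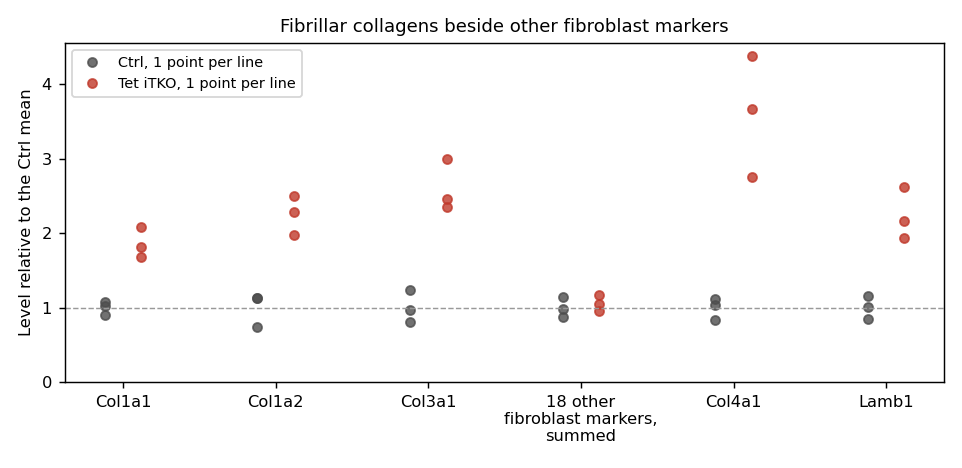
Level of each gene, or of 18 summed fibroblast markers, relative to its mean in *Ctrl* (vertical axis, from 0), with 1 point per line. The *Tet iTKO* lines lie at 1.68 to 2.09 for *Col1a1*, at 2.35 to 3 for *Col3a1* and at 2.75 to 4.38 for *Col4a1*, and at 0.951 to 1.17 for the summed markers, where the *Ctrl* lines lie at 0.878 to 1.14.

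Collagen IV and laminins are abundant products of extraembryonic endoderm, whose markers had few reads here. The 13 endoderm markers summed to between 27 and 40 normalized counts in *Ctrl* and between 52 and 63 in *Tet iTKO* libraries. These ranges do not overlap, with 1.78 times as many in *Tet iTKO*, though single markers went both ways. *Afp* and *Ttr* were listed at 0 throughout. *Gata4* had 2, 7 and 10 against 21, 12 and 27, a log2 fold change of 1.64 (adjusted p = 0.03, limma), and 1.23 after the correction (adjusted p = 0.12, limma). Its mean in *Ctrl* was 6.33, so that it entered the test only through its *Tet iTKO* values. *Amn*, a gene of visceral endoderm, had 1, 3 and 1 against 19, 20 and 14 and was not tested, as its mean was under 10. *Gata6* had 2, 0 and 5 against 1, 1 and 1, *Sox17* had at most 4 normalized counts, and *Sox7* had 17, 24 and 7 against 2, 9 and 9 (log2 fold change -1.19, adjusted p = 0.15, limma). The part of endoderm-like cells in the values of *Col4a1*, *Col4a2* and *Lamb1* was not tested. Markers of trophoblast summed to between 40 and 67 in *Ctrl* and 53 and 72 in *Tet iTKO* libraries, with *Tpbpa* at 0 in all and neither gene tested past the threshold. *Eomes* had 10, 27 and 23 against 31, 36 and 35 (log2 fold change 0.84, adjusted p = 0.091, limma), and *Ascl2* had 29, 17 and 14 against 19, 19 and 5 (log2 fold change -0.58, adjusted p = 0.4, limma). Below the mean required, *Cdx2* and *Hand1* were at 0 in all *Ctrl* libraries and had 1, 5 and 2 and 6, 5 and 6 in the *Tet iTKO* libraries, whereas *Gata3* had 10, 10 and 1 against 4, 5 and 4 and *Krt7* had 7, 13 and 2 against 5, 2 and 0. Of the endothelial markers, *Cdh5* was listed at 0 in all libraries, *Kdr* had at most 1, *Tek* had 5, 16 and 4 against 30, 23 and 17 (log2 fold change 1.57, adjusted p = 0.022, limma), and *Pecam1*, which mESC express as well, did not pass (log2 fold change -0.08, adjusted p = 0.6, limma). *Tek*, with a mean of 8.33 in *Ctrl*, likewise entered the test only through its *Tet iTKO* values.

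Collagen IX, a fibril-associated collagen of cartilage whose 3 chains form a heterotrimer, was represented by 2 of its genes. *Col9a2* was at 35, 61 and 53 normalized counts over the *Ctrl* lines, against 123, 149 and 139 for *Tet iTKO*, without overlap. On the log2 scale it rose by 1.48 (SE 0.21, adjusted p = 9.9e-07, limma), and 0.89 after the correction (adjusted p = 0.0012, limma). *Col9a3* had 12, 18 and 12 against 34, 15 and 62, and the lines overlapped. Its log2 fold change of 1.15 (SE 0.44, adjusted p = 0.04, limma) rests on *Tet iTKO* replicate 3, without which it was 0.68 (adjusted p = 0.35, limma). The call was also lost without *Ctrl* replicate 1 (1.06), *Ctrl* replicate 3 (1.06) or *Tet iTKO* replicate 1 (1.11). It was lost after the GC and length correction as well, where the log2 fold change was 0.69 (adjusted p = 0.26, limma). *Col9a1*, the gene of the alpha1 chain without which the trimer does not form, had 1 normalized count in 1 library and 0 in the others. The remaining fibril-associated genes were below the mean required. *Col16a1* had 3, 0 and 1 against 11, 5 and 9, *Col22a1* had 1, 1 and 4 against 11, 7 and 2, and *Col12a1* was at 0 in *Ctrl* and had 2, 3 and 3 in *Tet iTKO* lines.

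*Col18a1*, a multiplexin of basement membrane zones whose end fragment is endostatin, was the most abundant gene of all 55. It was at 946, 943 and 951 normalized counts over the *Ctrl* lines, against 985, 1159 and 973 for *Tet iTKO*, so that the groups did not overlap, although without *Tet iTKO* replicate 2 the log2 fold change was 0.05. With all lines it was 0.13 (95% interval -0.01 to 0.27, adjusted p = 0.15, limma), and -0.62 after the GC and length correction (adjusted p = 3.6e-09, limma). *Col15a1*, the other multiplexin gene, was listed at 0 in every library. On the opposite strand *Col18a1* overlaps *Slc19a1* by 8825 bases, a gene with 158 and 187 normalized counts in *Ctrl* and *Tet iTKO* mESC, and Smart-Seq2 reads carry no strand. *Col13a1*, a transmembrane collagen, had 8, 8 and 3 against 6, 21 and 19 (log2 fold change 1.08, adjusted p = 0.19, limma), and *Col17a1*, the transmembrane collagen of hemidesmosomes, had 0, 1 and 1 against 5, 13 and 8.

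Of the 36 genes below the mean of 10, 9 were listed at 0 in all 6 libraries and 18 others never exceeded 10 normalized counts. The mean was higher in *Tet iTKO* mESC for 19 of the 36, lower for 7 and equal for 1, and in 6 every *Tet iTKO* line stood above every *Ctrl* line. The shares over all genes with so low a mean were not computed, so these counts have no background here. Over the whole table, genes above 0 numbered 13431 to 13539 in the *Ctrl* and 14024 to 14363 in the *Tet iTKO* libraries. Together the 36 had between 55 and 74 normalized counts in the *Ctrl* and between 101 and 125 in the *Tet iTKO* libraries. Collagen VI, the beaded filament collagen of connective tissue, was low throughout: *Col6a1* had 4, 6 and 3 against 15, 18 and 5, *Col6a2* had 2, 4 and 4 against 8, 10 and 4, and the highest value of its other genes was 7. *Col7a1*, the collagen of anchoring fibrils, had 2, 2 and 3 against 9, 4 and 21. *Col8a1* had 3, 6 and 16 against 4, 7 and 7, and *Col26a1* had 4, 14 and 5 against 5, 12 and 10. At this depth a value of 3 or fewer normalized counts is not told from 0.

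The proteins that accompany laminin and collagen IV in basement membranes included genes called in both directions. Of 20 such genes, 12 were tested, 5 were higher and 1 was lower, where the shares over all genes were 16.4% and 18.4%. After the correction 1 was higher and 5 were lower, with shares of 9.45% and 18.7%. The median log2 fold change as deposited was 0.24, against 0.01 over all genes. *Sparc*, a collagen-binding glycoprotein and the most abundant of the 20, fell from 1912, 1886 and 1966 to 1370, 1343 and 1382, a log2 fold change of -0.49 (adjusted p = 7.7e-09, limma), and -0.53 after the correction. *Ntn1*, a laminin-related netrin, and *Hspg2*, which encodes perlecan, rose by 1.07 and 0.74 on the log2 scale (adjusted p = 0.00014 and 0.00019, limma), and *Agrn*, which encodes agrin, rose by 0.31 (adjusted p = 0.0028, limma). *Hspg2* and *Agrn* had the opposite sign after the correction, -0.39 and -0.40, and *Ntn1* had 0.49 and did not pass (adjusted p = 0.087, limma). *Nid2*, a nidogen that links both networks, had 842, 856 and 862 against 874, 903 and 878 (log2 fold change 0.05, adjusted p = 0.59, limma), and -0.30 after the correction. *Pxdn*, the peroxidase that crosslinks collagen IV, had 8, 5 and 14 against 36, 36 and 28 normalized counts, a log2 fold change of 1.87 (adjusted p = 0.0015, limma) that was 1.46 after the correction (adjusted p = 0.014, limma). It was chosen after its values were seen. With a mean of 9 in *Ctrl* it entered the test only through its *Tet iTKO* values.

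Among 17 receptors of laminin and collagen, 10 were tested, 3 were higher and 2 were lower, and 0 and 2 after the correction. Over all genes the shares were 16.4% and 18.4%, and 9.45% and 18.7% after the correction, so that these counts lie near the background, and the median log2 fold change of the receptors was 0.16. *Dag1*, which encodes dystroglycan, had 470, 489 and 390 against 603, 581 and 577, a log2 fold change of 0.39 (adjusted p = 0.00067, limma) that was 0.04 after the correction. *Ddr1*, a collagen receptor kinase, rose by 0.34 (adjusted p = 0.041, limma), and had -0.22 after the correction. *Sdc4*, a syndecan, and *Bcam*, a receptor of the *Lama5* chain, fell by 0.68 and 0.40 on the log2 scale (adjusted p = 3.6e-08 and 0.00022, limma), and by 0.66 and 0.82 after the correction. *Itga6*, the alpha subunit of laminin integrins, and its beta partner *Itgb1* had log2 fold changes of 0.16 and 0.02 (adjusted p = 0.22 and 0.93, limma). *Itgb4*, the other beta partner of *Itga6*, had 18, 22 and 20 against 56, 60 and 58, a log2 fold change of 1.49 (adjusted p = 0.00025, limma) that was 0.75 after the correction (adjusted p = 0.069, limma). These 3 integrin genes were named after their values were seen.

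The enzymes and chaperones of collagen synthesis in the endoplasmic reticulum included genes that rose and genes that fell, and the 2 most abundant of them, *P4hb* and *Serpinh1*, fell. Of a list of 23 genes, 22 were matched and 18 were tested, 6 were higher and 4 were lower, where the shares over all genes were 16.4% and 18.4%. After the correction 3 were higher and 6 lower, with shares of 9.45% and 18.7%, and the median log2 fold change as deposited was 0.11. *P4hb*, the beta subunit of prolyl 4-hydroxylase and protein disulfide isomerase, fell from 3873, 3937 and 3792 to 2999, 2931 and 3020 normalized counts, a log2 fold change of -0.37 (adjusted p = 3.8e-08, limma). *Serpinh1*, the collagen chaperone HSP47, had a log2 fold change of -0.20 (adjusted p = 0.009, limma), *Ppib*, a cyclophilin of the prolyl 3-hydroxylation complex, -0.66 (adjusted p = 3.4e-07, limma), and *P3h1*, a prolyl 3-hydroxylase, -0.46 (adjusted p = 0.0052, limma). All 4 were lower after the correction as well. *Crtap*, the third protein of that complex, had -0.18 (adjusted p = 0.09, limma), and -0.28 after the correction (adjusted p = 0.0091, limma). In the other direction *Fkbp10*, a prolyl isomerase that acts on collagen, rose from 26, 58 and 61 to between 110 and 125, a log2 fold change of 1.33 (adjusted p = 5.3e-05, limma), and 1.02 after the correction. *P3h3* and *P3h4*, relatives of *P3h1*, rose by 1.51 and 1.39 on the log2 scale (adjusted p = 0.0049 and 0.00064, limma), and had 1.00 and 1.11 after the correction (adjusted p = 0.07 and 0.0062, limma). *P4ha1*, an alpha subunit of prolyl 4-hydroxylase that pairs with *P4hb*, rose by 0.83 (adjusted p = 0.024, limma), and had 0.83 after the correction (adjusted p = 0.029, limma). These 3 were named after their values were seen. *Plod3*, a lysyl hydroxylase, and *Mia2*, a factor in the export of large cargo, rose by 0.54 and 0.28 (adjusted p = 0.018 and 0.02, limma), and neither passed after the correction.

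Outside the cell, of 14 genes that process or crosslink collagen 6 were tested, 0 were higher and 1 was lower, and at an unadjusted p under 0.05 the limma counts were the same. With shares of 16.4% and 18.4% over all genes after adjustment these counts lie near the background, and the median log2 fold change was 0.07. At the unadjusted threshold, 2240 and 2330 of the 10457 tested genes with a symbol were higher and lower. *Pcolce*, which enhances the cleavage of procollagen, fell from 872, 799 and 844 to 656, 637 and 705 (log2 fold change -0.33, adjusted p = 0.00052, limma). *Pcolce2* and *Adamts14*, the procollagen protease of this list with the highest mean, had log2 fold changes of 0.09 and 0.34 (adjusted p = 0.63 and 0.5, limma). Of 12 matrix proteases and inhibitors 7 were tested, 3 were higher and 1 was lower, and 3 and 0 after the correction. The shares over all genes were 16.4% and 18.4%, and 9.45% and 18.7% after the correction, and the median log2 fold change of the 7 was 0.33. *Mmp14*, a membrane-bound collagenase, rose from 88, 119 and 119 to 189, 209 and 238, a log2 fold change of 0.97 (adjusted p = 5.2e-06, limma) and 0.75 after the correction (adjusted p = 0.00018, limma). *Mmp2*, a gelatinase that *Mmp14* activates, and *Mmp15*, another membrane-bound protease, had log2 fold changes of 1.52 and 1.53 (adjusted p = 0.00046 and 0.00049, limma), and both passed after the correction. These 2 were named after their values were seen. The inhibitor *Timp1* fell by 0.43 on the log2 scale (adjusted p = 0.004, limma), and had -0.08 after the correction (adjusted p = 0.65, limma), and *Timp2* had 0.33 (adjusted p = 0.36, limma).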

How the data were processed

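RNA of 6 sorted mESC lines, 3 *Ctrl* and 3 *Tet iTKO*, was measured with Smart-Seq2. According to the study's methods and the submitters' processing notes, the authors kept reads with a single STAR alignment to mm9, counted them with HTSeq 0.7.1 with the setting for stranded reads, and divided them by DESeq2 1.26.0 size factors. The annotation version is not given in the sources used here. The authors deposited a score per gene, normalized counts rounded to whole numbers, which are not read counts. DESeq2 and edgeR were therefore not run. Smart-Seq2 keeps no strand, so reads of overlapping genes on opposite strands cannot be told apart.

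GENCODE M21 (GRCm38) gave symbols for 20775 of 22380 identifiers, and for each gene the length and GC content of its longest coding transcript. limma 3.58.1 in R 4.3.3 (lmFit, eBayes with a trend) took log2(normalized count + 1) of all genes whose mean reached 10, with Benjamini-Hochberg adjustment over the whole table, and had been tested on simulated data. Such fold changes understate those of genes with few reads. The GC and length correction fitted a loess to how far each library lay from the mean of each gene and subtracted it. Ratios were compared by exact permutation tests (SciPy 1.17.1). The floor was set at 3 normalized counts and covers counting error only.

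Genes named are all collagen and laminin genes with a mean of at least 10, others of them with a library above 10, and of each gene list the 3 with the highest mean and up to 3 in each direction with the largest change among those with an adjusted p under 0.05 and a mean of at least 50, with the markers at 0 or called. Further genes named are values given for context. The collagen and laminin genes and the lists were chosen with earlier results of these data known. The replicate numbers of the labels did not pair the lines, which come from different embryos. Of the 19 genes tested, 1 is not reported here by name.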

Additional observations from a re-analysis of the deposited data

How the results depend on the processing

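As deposited, 12 of the collagen and laminin genes were higher and 0 lower (limma), and this count was 10 to 12 when each line was left out, and 10 or more under pseudocounts of 0.5 and 4, trimmed means of M values, quantile normalization and limma without the trend. Quantile normalization added *Col18a1* and lost *Col9a3*, and limma without the trend added *Lama1* and lost *Lamc1*, *Lama3* and *Col9a3*. The count was 9 of 11 tested with a required mean of 50. Without a filter on the mean it was 15 of 46 tested, as *Col16a1*, *Col17a1*, *Col8a2* and *Col12a1* were added and *Col9a3* was lost. In *Ctrl* none of the added genes exceeded 3 normalized counts, the floor, and *Col12a1* had at most 3 in *Tet iTKO* lines as well. Shares over all genes were not computed for these filters, so the counts are not comparable with each other. With a log2 fold change of at least 1 required, 7 genes were higher, 3 of them basement membrane genes. The GC content and length correction changed the most: 6 genes were higher and 3 lower, with 3 higher and 2 lower among the basement membrane genes, and the same numbers arose with the replicate block added. The log2 fold changes of *Col18a1*, *Lamc1*, *Lama5* and *Col5a1* then became -0.62, -0.25, -0.29 and -0.23, without and with the block, and the difference in the log2 ratio of *Lama5* to *Lamc1* became -0.04, and the cause was not tested. Without each line in turn, the count was 6 to 7 for higher basement membrane genes and 3 to 4 for higher fibrillar genes, and the differences in log2 ratio were 0.31 to 1.03 for *Col4a2* to *Col4a1*, 0.81 to 1.00 for *Lamb1*, 0.41 to 0.80 for *Lama1* and 0.31 to 0.63 for *Lama5*, each to *Lamc1*. The calls of *Lamc1* and *Lama3* were each lost in 2 of these 6 fits: *Lamc1* without *Ctrl* replicate 3 (0.22) or *Tet iTKO* replicate 1 (0.21), *Lama3* without *Ctrl* replicate 2 (0.41) or *Tet iTKO* replicate 3 (0.39). *Col5a2* passed without *Tet iTKO* replicate 1 (1.57).

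The replicate block alone gave 12 higher and 0 lower genes and changed no call. Same-numbered lines did not deviate together, with correlations from -0.00543 to 0.000706.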
